A study of Mus musculus with 16 samples.

Results

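Atf4, Atf5, Trib3 and Ddit4 are genes of the cellular response to amino acid shortage and related stresses, and their RNA was followed in mouse CD4 T cells with and without deletion of Sin3a, before and after Th17 polarization. These 4 genes were chosen by symbol, out of 7723 gene names that could be joined to a row of a table of 17850 rows. All 4 were found and all 4 passed the filter on low values. The table pairs a name only with genes that its authors list as lower in deficient than in sufficient Th17 cells, so the direction of that comparison was fixed by the listing for every named gene below, and genes that rose there carry no name.

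The cells were CD4 T cells purified from mice of 2 months that carry Rosa26-CreERT2 +/- and Sin3AF/F on the C57BL/6 J strain. Rosa26-CreERT2 is a Cre recombinase made in most cell types and active only with tamoxifen, and Sin3AF/F means floxed alleles of Sin3a, which encodes the core protein of a corepressor complex that carries histone deacetylases. The cultures spent 6 days with the survival cytokine IL-7, and part of them spent 3 further days under Th17 polarizing conditions. Deficient cultures had tamoxifen and sufficient ones did not. For the deficient Th17 group the labels do not say on which of these days tamoxifen was present. This gave 4 groups of 4 libraries. They are the IL-7 sufficient group (BASAL955, BASAL957, BASAL959, BASAL960), the IL-7 deficient group (BASALTAM955 and the same endings), the Th17 sufficient group (D3955 and so on) and the Th17 deficient group (D3TAM955 and so on), and values below follow that order. All groups share the Cre allele and the floxed alleles, and 0 libraries had tamoxifen without the floxed alleles, so the deletion and tamoxifen itself cannot be told apart. The same 4 endings recur in every group, and the labels do not say that each stands for a mouse. The label Female occurs under only 1 of the 4 endings. P-values therefore cover the spread among these libraries only, part of which may be technical.

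Libraries held 19749252 to 28616186 reads over the table. Sin3a itself stood at 2106 ± 181 normalized counts (counts divided by a size factor per library, mean ± SD, n = 4) in sufficient Th17 cells and at 1774 ± 49.8 (n = 4) in deficient ones, a log2 change of -0.24 (SE 0.08, limma adjusted p = 0.0113), and at 2524 ± 249 and 2211 ± 98.2 (n = 4 each) in IL-7 cells, where the change of -0.19 did not pass (limma adjusted p = 0.186). Over all tested named rows the median change in Th17 cells was -0.41. Which exons are floxed is not stated in the labels, and reads from the rest of the gene would not show their loss. How many cells kept undeleted alleles was not tested either, so deletion below means the deficient groups as labelled against the sufficient ones. Of the markers of CD4 T cells, 4 of 7 were joined to a row, and their summed level was 37448 to 41491 normalized counts in sufficient and 22618 to 26686 in deficient Th17 cells, with 4 of 4 lower (limma adjusted p under 0.05). Of all tested named rows 54.9% were called as lower there. Only genes listed as lower carry a name, so for every marker here the direction in Th17 cells was fixed by the listing. In IL-7 cells the sums of the CD4 T cell markers were 49827 to 56013 and 45598 to 50099. Of the markers of B cells 4 of 6 were joined, with sums of 386 to 1083 in sufficient and 132 to 240 in deficient IL-7 cells, and of 137 to 327 and 63.3 to 186 in the Th17 groups. Much of the difference in IL-7 cells lay in Blk, at 202 to 746 in sufficient and 35.6 to 106 in deficient libraries. Cd79a stood at 80.2 to 145 and 56.3 to 80.0 there and was not called (limma adjusted p = 0.224). The 2 CD8 T cell markers summed to 231 to 519 in sufficient and 113 to 196 in deficient Th17 cells, and 430 to 638 and 351 to 538 in IL-7 cells. The NK cell marker that was joined, Klre1 (1 of 4), ran from 32.3 to 50.6 and from 0 to 6.42 in the IL-7 groups, and from 171 to 252 and from 48.3 to 105 in the Th17 groups, sufficient before deficient. Alas2, 1 of 3 erythroid markers, stood at 11.9 to 17.4 in sufficient and 3.83 to 7.50 in deficient Th17 cells, and at 10.9 to 15.2 and 10.6 to 22.0 in IL-7 cells, and 0 of 7 myeloid markers were joined. The deposited counts had lost their decimal points, and for Klre1, Cd8a, Cd79b and Ms4a1 the decimal place of the IL-7 values was not settled. Their IL-7 levels, and the sums that hold them, are therefore uncertain. The part of other cells in the results below was not tested, and fewer cells of a type and less RNA per cell cannot be told apart in bulk RNA.

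When amino acids run short, or proteins misfold in the endoplasmic reticulum, kinases such as GCN2 and PERK phosphorylate the translation factor eIF2. This lowers protein synthesis in general while the mRNA of the transcription factor ATF4 is translated better. ATF4 then acts on genes for amino acid synthesis, transport and tRNA charging, and on further stress factors, among them ATF5, TRIB3 and DDIT4. ATF5 is a related bZIP factor whose mRNA is also under translational control, TRIB3 is a pseudokinase that binds ATF4 and the kinase AKT and limits both, and DDIT4 (also called REDD1) restrains mTORC1, the kinase complex that couples nutrients to growth. Ddit4 also answers to hypoxia and glucocorticoids, and activated T cells use the ATF4 pathway to meet their need for amino acids. Since ATF4 and ATF5 are controlled at translation, RNA levels give only part of their activity.

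Promoters of the 4 genes were taken from RefSeq (build GRCm38.p6, 4 of 4 matched by symbol, 5 start sites), as the 250 bases before the start of transcription. Ddit4 and Trib3 are shown because they had the largest changes with the deletion, and Asns, which encodes asparagine synthetase, because it is a classical target of ATF4. Lower case marks plain sequence, and capitals mark a match to TGATGNAA, the composite element that C/EBP and ATF factors bind, or to ACGTG, the core of the hypoxia response element, on either strand. These motifs occur in 3.45% and 16.6% of 32851 promoter windows of the same length, and no match below overlaps another.
Ddit4, chr10:59951771-59952020, minus strand: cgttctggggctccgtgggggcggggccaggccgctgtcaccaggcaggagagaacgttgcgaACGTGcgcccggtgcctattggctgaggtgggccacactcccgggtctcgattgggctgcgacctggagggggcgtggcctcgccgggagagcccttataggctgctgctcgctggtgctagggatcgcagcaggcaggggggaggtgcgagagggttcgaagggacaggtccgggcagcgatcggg
Trib3, chr2:152344061-152344310, minus strand: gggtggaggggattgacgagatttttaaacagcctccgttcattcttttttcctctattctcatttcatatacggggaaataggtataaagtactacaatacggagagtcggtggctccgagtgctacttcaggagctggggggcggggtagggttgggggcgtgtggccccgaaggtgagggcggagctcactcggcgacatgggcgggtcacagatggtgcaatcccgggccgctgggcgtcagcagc
Asns, chr6:7693210-7693459, minus strand: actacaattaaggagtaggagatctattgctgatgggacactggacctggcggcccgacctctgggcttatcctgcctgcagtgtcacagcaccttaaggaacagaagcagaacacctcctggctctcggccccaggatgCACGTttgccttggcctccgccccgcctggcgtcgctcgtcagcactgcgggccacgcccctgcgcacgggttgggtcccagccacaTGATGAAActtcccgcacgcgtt
In the Ddit4 window ACGTG stands 187 to 183 bases before the start site. The Asns window holds TGATGAAA at 23 to 16 bases before the start and CACGT, which is ACGTG on the other strand, at 110 to 106. None of the 5 start sites of the 4 genes had TGATGNAA in its window (0 of 5), and Trib3 had neither motif there. A match is only a match of letters, and a missing one says only that these letters are not in this window.

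Deletion was compared first after polarization, the comparison named in the series' design. All 4 genes were lower in deficient Th17 cells. Ddit4 fell 3.05-fold, Trib3 2.83-fold, Atf5 1.76-fold and Atf4 1.57-fold, on the log2(normalized count + 1) scale used for every change here. Of all 13872 rows tested, 56.5% were called (limma adjusted p under 0.05 with Benjamini-Hochberg adjustment over all rows), 28.4% as lower, and of the 6583 tested rows with a name 54.9% were called as lower and 0 as higher. A count of 4 of 4 lower therefore has to be read against a list whose members are all listed as lower.

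Atf4, the gene of the pathway's central factor (ENSMUSG00000042406), had normalized counts of 5899, 7523, 8073 and 11168 in the sufficient Th17 libraries D3955, D3957, D3959 and D3960. In the deficient libraries D3TAM955, D3TAM957, D3TAM959 and D3TAM960 the counts were 5233, 5342, 4677 and 5043. The groups did not overlap, and the sufficient libraries were spread over a wider range, with D3960 the highest and D3955 close to the deficient group. The means were 8166 ± 2204 and 5073 ± 292 (SD, n = 4 each), a log2 change of -0.65 (SE 0.13, limma adjusted p = 0.000333).

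Atf5 (ENSMUSG00000038539), the gene of the related bZIP factor, had 485, 440, 403 and 668 in sufficient and 406, 296, 211 and 235 in deficient Th17 libraries. These groups overlapped, since D3TAM955 lay just above D3959. From 499 ± 118 to 287 ± 87.0 normalized counts (n = 4 each) the log2 change was -0.81 (SE 0.18, limma adjusted p = 0.000961), so the mean difference passed although the order of libraries was not clean.

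Trib3 (ENSMUSG00000032715), the gene of the pseudokinase that feeds back on ATF4, had 461, 595, 654 and 709 in sufficient Th17 libraries. The deficient libraries had 220, 239, 177 and 208, all below every sufficient one. The log2 change was -1.50 (SE 0.16, limma adjusted p = 3.8e-07), between means of 605 ± 106 and 211 ± 26.0 (n = 4 each).

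Ddit4 (ENSMUSG00000020108), the gene of the mTORC1 inhibitor, had 18209, 24468, 24981 and 25483 in sufficient Th17 libraries and 7184, 7306, 8565 and 7278 in deficient ones. The lowest sufficient library, D3955, was still above the highest deficient one, D3TAM959. Means of 23285 ± 3409 and 7583 ± 657 (n = 4 each) gave a log2 change of -1.61 (SE 0.10, limma adjusted p = 7.6e-10). The authors' deposited table gives log2 fold changes of -1.62 for Ddit4, -1.52 for Trib3, -0.80 for Atf5 and -0.69 for Atf4, values that served to join the names to their rows and are no independent evidence.

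**Figure D1:**
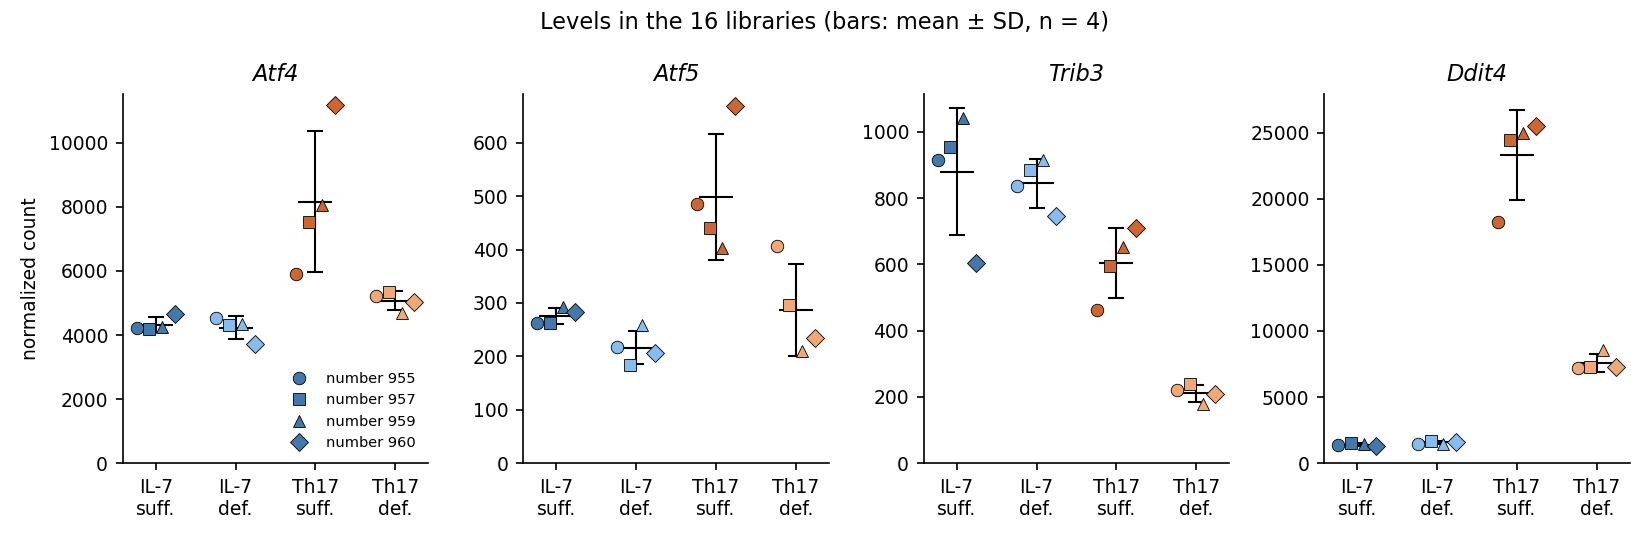
Normalized counts of Atf4, Atf5, Trib3 and Ddit4 (y axes, each from 0) in the 4 groups (x axis), 1 point per library with its shape giving the recurring number, and bars for mean ± SD (n = 4). Ddit4 stands near 1410 and 1571 in IL-7 cells, at 23285 in sufficient and 7583 in deficient Th17 cells, while Trib3 is lowest in deficient Th17 cells at 211.

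Before polarization no change of these genes passed the test. In IL-7 cells 0 of 4 were called by limma, also 0 at an unadjusted p under 0.05 and 0 with voom weights, against 4.22% of all tested rows called (2.05% as higher and 2.17% as lower). That background of 586 rows was itself unstable. It was 41 without the 4 libraries that share the ending of BASAL957, 142 without those that share the ending of BASAL959, 339 without BASAL957 alone, and 299, 261 and 348 without BASALTAM955, BASALTAM957 and BASALTAM959 in turn.

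Atf4 counts were 4216, 4179, 4257 and 4655 in sufficient IL-7 libraries and 4526, 4326, 4347 and 3717 in deficient ones, with full overlap and a log2 change of -0.04 (95% interval -0.31 to 0.24). BASAL960 was the highest of the sufficient group and BASALTAM960 the lowest of the deficient one, and the change was 0.06 without the libraries of that ending. Atf5 counts were 263, 262, 292 and 283 in sufficient and 218, 183, 259 and 207 in deficient IL-7 libraries. No deficient library reached the sufficient ones, but the log2 change of -0.35 (SE 0.18) did not pass (limma adjusted p = 0.323), and its 95% interval ran from -0.74 to 0.03.

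Trib3 counts were 917, 956, 1043 and 604 in sufficient and 836, 884, 917 and 746 in deficient IL-7 libraries. The groups overlapped, with BASAL960 lowest of all, and the log2 change of -0.03 (95% interval -0.36 to 0.30) took the other sign when single libraries were left out. Ddit4 counts were 1364, 1500, 1484 and 1293 in sufficient and 1483, 1695, 1466 and 1638 in deficient IL-7 libraries. They overlapped, and the estimate was on the higher side, a log2 change of 0.16 with a 95% interval of -0.05 to 0.36 (limma adjusted p = 0.441).

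The difference between both deletion effects was tested itself, as the change in Th17 cells minus that in IL-7 cells. It shares the Th17 libraries by which the named genes were listed, so among named rows 35% were called as more negative and 0.289% as less negative, against 38.2% called over all rows, 20.1% as less and 18.1% as more negative. Of the members 3 of 4 passed, Ddit4 at -1.76 (SE 0.14, limma adjusted p = 1.3e-07), Trib3 at -1.47 (SE 0.22, limma adjusted p = 7.9e-05) and Atf4 at -0.61 (SE 0.18, limma adjusted p = 0.013). For Atf4 the call was lost without the libraries with the ending of D3957 (-0.64, limma adjusted p = 0.0712) or of D3959 (-0.55, limma adjusted p = 0.104). The difference for Atf5 was -0.46 (SE 0.26) and did not pass (limma adjusted p = 0.168), but passed without D3TAM955 (-0.64, limma adjusted p = 0.033). The count of all called rows fell from 5304 to 3236 without the libraries with the ending of D3957.

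Polarization was examined next, as the change from IL-7 to Th17 cells at each Sin3a status. The Th17 groups also spent 3 further days in culture, so polarization and time in culture cannot be told apart. The same limit holds for the difference between both deletion effects. Named genes were listed by the same Th17 libraries, so for them neither polarization comparison is independent of the listing. In sufficient cells 76.8% of all tested rows were called, 36.6% as higher and 40.2% as lower, so that a call is the usual case. Of named rows 41% were called as higher and 35.3% as lower, with a median of 0.08. Ddit4 rose 16.4-fold, a log2 change of 4.03 (SE 0.10, limma adjusted p = 2.3e-15), with every Th17 library above every IL-7 one. Atf4 rose 1.84-fold (log2 change 0.88, SE 0.13, limma adjusted p = 6.4e-06) and Atf5 1.78-fold (log2 change 0.83, SE 0.18, limma adjusted p = 0.000453), again with no overlap of the groups. Trib3 went the other way, falling 1.44-fold (log2 change -0.53, SE 0.16, limma adjusted p = 0.00535). Its groups overlapped through the low value of BASAL960, and without the libraries with the ending of BASAL955 the change was -0.37 and did not pass (limma adjusted p = 0.0724).

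In deficient cells 78.3% of all tested rows were called, 37.9% as higher and 40.4% as lower. Of named rows 28.3% were called as higher and 50.2% as lower, with a median of -0.33. Ddit4 still rose, by a log2 change of 2.27 (4.82-fold, SE 0.10, limma adjusted p = 8.7e-13). Trib3 fell by 2.0 on the log2 scale (4.0-fold, SE 0.16, limma adjusted p = 1.7e-09), with all Th17 libraries below all IL-7 ones. Atf4 changed by 0.26 (SE 0.13), which did not pass (limma adjusted p = 0.0691) although the lowest Th17 library, at 4677, stood above the highest IL-7 one, at 4526. It passed under 4 of 29 alternatives, namely scaling to total reads (0.29, limma adjusted p = 0.0398), quantile normalization (0.32, limma adjusted p = 0.0161) and the fits without D3955 (limma adjusted p = 0.0232) or D3960 (limma adjusted p = 0.0122), where the change itself stays at 0.26. Atf5 changed by 0.37 (SE 0.18), with overlapping groups and no call (limma adjusted p = 0.0718), and was called under 6 of 29 alternatives. These were quantile normalization (0.40, limma adjusted p = 0.0471) and the fits without the libraries with the ending of D3TAM959 (0.59, limma adjusted p = 0.0143), without D3TAM959 alone (0.50), D3TAM960 (0.45), BASALTAM959 (0.46) or D3960 (0.37). Without D3TAM955 it was 0.19. The polarization comparisons of the sufficient and of the deficient groups share no library, and the test of their difference is the same as that of both deletion effects given above.

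**Figure D2:**
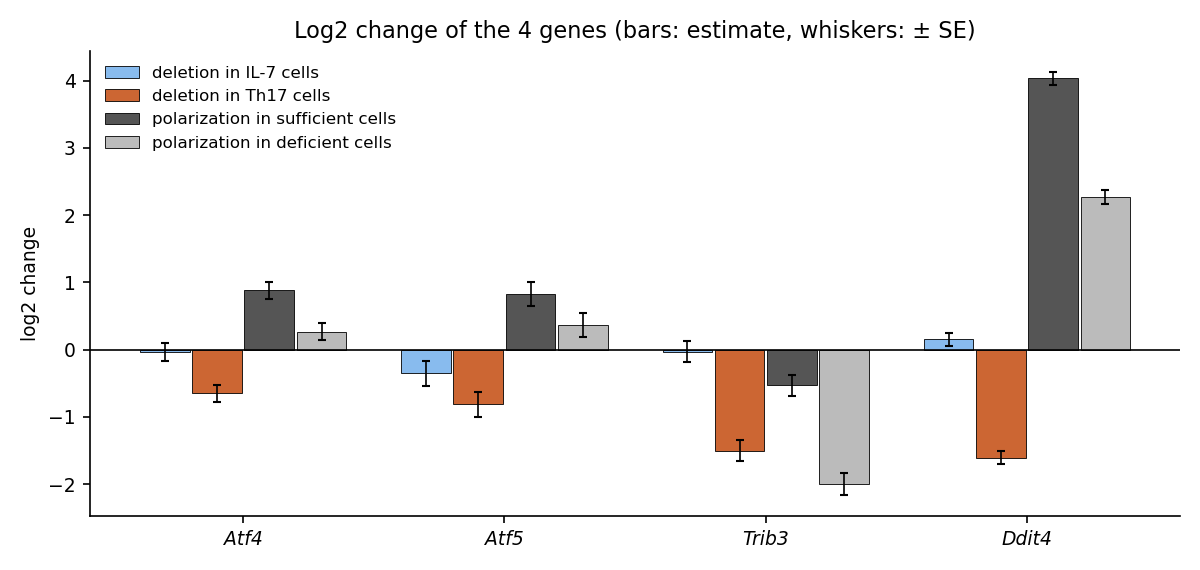
Log2 changes of the 4 genes (y axis) for the deletion in IL-7 and in Th17 cells and for polarization of sufficient and of deficient cells, with whiskers of ± SE. The deletion bars in Th17 cells run from -0.65 for Atf4 to -1.61 for Ddit4, and polarization of Trib3 is negative in both backgrounds (-0.53 and -2.0).

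The order of the 4 groups therefore differed between genes. Atf4 was lowest in deficient IL-7 cells (4229 ± 353), followed by sufficient IL-7 (4327 ± 221), deficient Th17 (5073 ± 292) and sufficient Th17 cells (8166 ± 2204). The first neighbours did not differ beyond their spread. Atf5 had the same order, at 216 ± 31.5, 275 ± 14.8, 287 ± 87.0 and 499 ± 118, and the middle groups overlapped. Ddit4 was lowest in sufficient IL-7 cells (1410 ± 99.2) and next in deficient ones (1571 ± 114), which overlapped, and higher in deficient (7583 ± 657) and sufficient Th17 cells (23285 ± 3409). Trib3 was lowest in deficient Th17 cells (211 ± 26.0), then came sufficient Th17 (605 ± 106), deficient IL-7 (846 ± 74.2) and sufficient IL-7 cells (880 ± 192), the last neighbours again overlapping.

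Across the 16 libraries, on the log2 scale, Pearson's r was 0.86 between Atf4 and Atf5, 0.86 between Atf4 and Ddit4 and 0.74 between Atf5 and Ddit4. Trib3 had r of -0.11 with Atf4, -0.05 with Atf5 and -0.48 with Ddit4. These values mostly restate the group means, and once each library was taken relative to its group mean, r was 0.48 between Atf4 and Trib3, 0.45 between Trib3 and Ddit4, 0.47 between Atf4 and Atf5 and -0.27 between Atf5 and Ddit4. The points share depth and library, so they are descriptions. The named genes with the profile most like that of Atf4 over the 16 libraries were Taf1d (r = 0.99), Ppp1r15a (0.97) and Ints12 (0.95). Ppp1r15a encodes GADD34, the phosphatase subunit that ends eIF2 phosphorylation. For Atf5 they were Gpr179 (0.96), BC003331 (0.91) and Gpx7 (0.90). For Trib3 they were Rbm39 (0.99), Gmeb2 (0.99) and Stk26 (0.98), and for Ddit4 Tiparp, Fosl2 and Col5a3 (0.99 each).

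Other genes of the pathway came from 4 lists of ATF4 targets, of which 30 of 65 genes are named in the table. In the fit of all 16 libraries 22 of them were tested, and 13 fell in deficient Th17 cells, none rose and 9 were not called. Their median log2 change was -0.34, against -0.41 for all tested named rows, of which 54.9% were called as lower. The share of targets that fell was thus near that of any named gene. For 8 further targets the decimal place of the IL-7 values was not settled, and a fit of the 8 Th17 libraries alone, added after the data were seen, covered them. It called 19 of 30 targets as lower, at a median of -0.49, beside 28.3% of all tested rows and 52.4% of named ones, whose median was -0.45.

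The targets are given by role. Of all tested named rows 54.9% were called as lower in the fit of 16 libraries, and 52.4% in the Th17 libraries alone. Among genes of stress signalling and transcription factors, 6 of 7 fell in deficient Th17 cells with a median of -1.72 in the fit of 16 libraries, and 10 of 11 fell with a median of -1.45 in the Th17 libraries alone. In the fit of 16 libraries Vldlr, a lipoprotein receptor gene, fell by 2.65 on the log2 scale, Stc2, encoding the secreted stanniocalcin, by 2.49, and Vegfa, the angiogenic growth factor gene, by 1.77. Vldlr had 817, 528, 500 and 711 normalized counts in sufficient and 31.6, 154, 164 and 119 in deficient Th17 libraries. Vegfa had 2261, 2391, 2658 and 3083 against 279, 1174, 1122 and 879. In both genes D3TAM955 was the lowest of all 8 Th17 libraries, and without it 6 of 7 genes of this list still fell, with a median of -1.30. In the fit of Th17 libraries alone Nupr1, a stress-induced chromatin protein gene, had the largest fall of the list at 2.75 (SE 0.34, limma adjusted p = 3.4e-05), from 647 ± 250 to 97.4 ± 49.9 (n = 4 each). Ddit3, the gene of the death-linked factor CHOP and named after its value was seen, changed by -0.07 in both fits (adjusted p = 0.561 by limma with 16 libraries), from 1021 ± 165 to 965 ± 41.4 (n = 4 each).

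Of the 6 named tRNA charging genes, 0 were called in the fit of 16 libraries, with 0 at an unadjusted p under 0.05 and 0 with voom weights, and their median was -0.05. In the Th17 libraries alone 1 of 6 was called, Aars, the alanyl-tRNA synthetase gene, at -0.25 (limma adjusted p = 0.0267). Beside 54.9% of all tested named rows and their median of -0.41, amino acid synthesis and folate genes fell in 4 of 5 cases with a median of -0.42. They were led by Mthfd1l, a mitochondrial folate enzyme gene, at -0.80. Amino acid transporter genes fell in 3 of 4 cases, beside the same 54.9%. They were Slc43a1, a transporter of large neutral amino acids, at -2.06, Slc7a3, a transporter of cationic amino acids, at -1.55, and Slc3a2, the heavy chain of several transporters, at -0.31. Slc3a2 was not called in the Th17 libraries alone (limma adjusted p = 0.062), and without D3TAM955 the transporter count was 2 of 4.

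Asns, taken up for its place in the pathway, could be tested only in the Th17 libraries alone. It had 1656, 1440, 1763 and 2300 normalized counts in sufficient and 887, 921, 739 and 1115 in deficient Th17 libraries. No deficient library reached a sufficient one. Its log2 change was -0.96 (SE 0.15, limma adjusted p = 0.000185), between 1790 ± 366 and 915 ± 155 (n = 4 each). In that fit the next called genes of the synthesis list were Mthfd1l at -0.80 and Bcat1, the branched-chain aminotransferase gene, at -0.64.

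**Figure D3:**
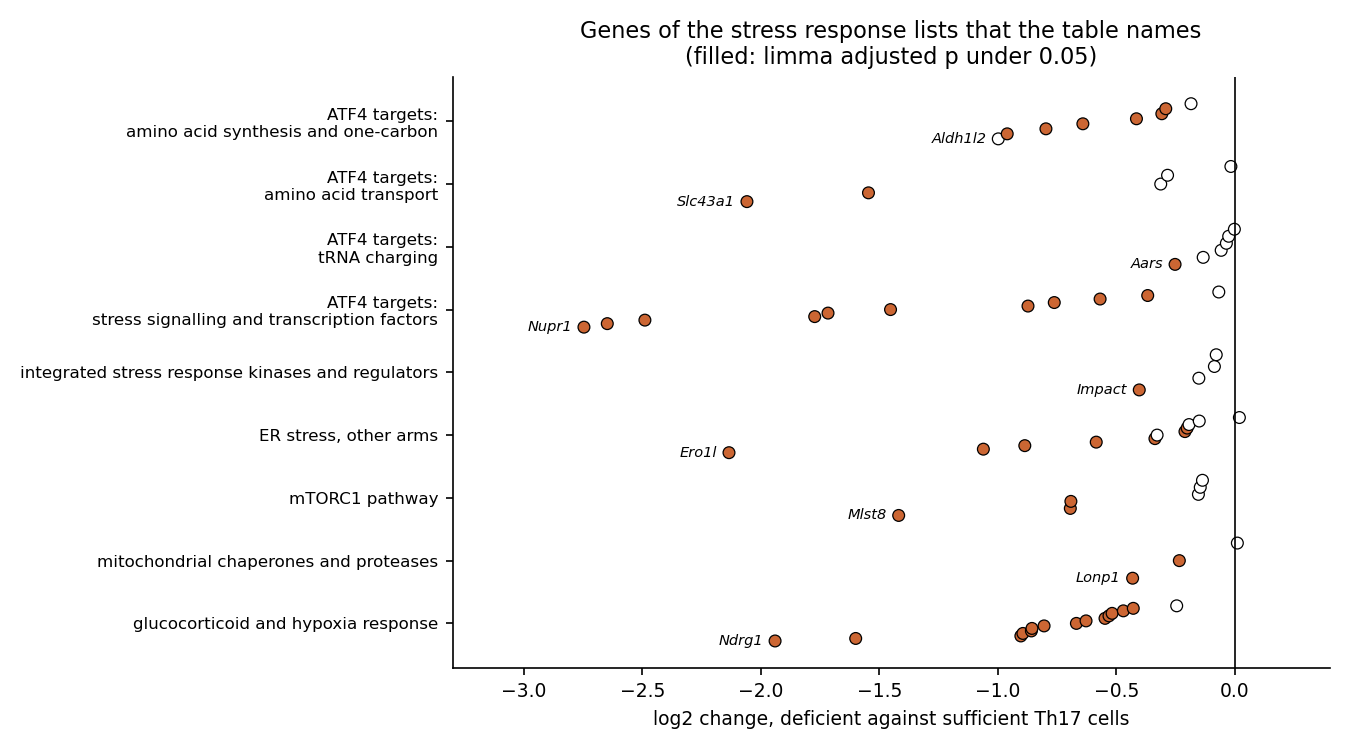
Log2 change between deficient and sufficient Th17 cells (x axis) of every named gene in 9 lists of stress response genes (y axis), in the fit of the 8 Th17 libraries alone, filled where limma's adjusted p is under 0.05 and labelled for the lowest gene of a list. Of the stress signalling list 10 of 11 points are filled, and of the tRNA charging list 1 of 6 is filled and all lie close to 0. In that fit 52.4% of all tested named rows were called as lower.

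In IL-7 cells 1 of the 22 ATF4 targets was called with the deletion, against 3.33% of named rows called as lower there. It was Jdp2, a bZIP repressor gene, which fell by 2.10 on the log2 scale (SE 0.37, limma adjusted p = 0.00401) from 20.4, 28.0, 21.9 and 26.2 to 4.8, 6.2, 8.3 and 2.0 normalized counts. It fell in Th17 cells as well, by 1.72. Over polarization in sufficient cells 20 of 22 targets rose and 0 fell, with a median of 1.23, against 41% of named rows called as higher and 35.3% as lower. Rises among the metabolic targets included Aldh1l2, a mitochondrial folate enzyme gene, at 3.89, Slc7a3 at 2.04 and Slc3a2 at 1.64. In deficient cells 16 rose and 1 fell, with a median of 0.90, against 28.3% of named rows as higher and 50.2% as lower. The gene that fell was Slc43a1, at -1.23. The tRNA charging genes rose in 6 of 6 cases in sufficient and in 6 of 6 in deficient cells, with medians of 1.16 and 1.11. Trib3 thus fell over polarization while most of the named targets rose.

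The stage test called 7 of 22 targets as more negative in Th17 than in IL-7 cells, beside 35% of named rows. These were Vldlr (-3.48), Slc43a1 (-1.90), Slc7a3 (-1.46), Vegfa (-1.26), Ppp1r15a (-0.85), Mthfd1l (-0.82) and Cebpg (-0.43), of which Cebpg encodes the C/EBP partner of ATF4. Vldlr was near the floor in IL-7 cells, at 0.84 to 2.34 normalized counts in sufficient and 0.88 to 8.89 in deficient libraries. Its value thus depends on few reads and on the 1 added before the logarithm. Slc43a1 was low as well, with group means from 8.73 (deficient Th17) to 36.6 (sufficient Th17). None of 6 tRNA charging genes was called by limma (0 of 6, with 1 at an unadjusted p under 0.05 and 0 with voom weights).

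Upstream of ATF4, 4 of 14 genes of the eIF2 kinases and their regulators are named, and 1 of 4 fell in deficient Th17 cells, where 54.9% of all tested named rows fell. It was Impact, an inhibitor of the amino acid sensor GCN2, at -0.40 (SE 0.10, limma adjusted p = 0.00168). In IL-7 cells Impact was higher with the deletion, at 0.35 (limma adjusted p = 0.049), so that its stage difference was -0.75 (limma adjusted p = 0.000384). Eif2ak3, the PERK gene, changed by -0.15 in Th17 cells and was not called (limma adjusted p = 0.137). In a list of further genes of endoplasmic reticulum stress 6 of 11 genes fell, which is close to that share, with a median of -0.33 beside -0.41 over all named rows. They were led by Ero1l, an oxidase of disulfide bond formation, at -2.13, Atf6, a membrane-bound stress factor gene, at -1.06 and Hspa5, the chaperone BiP, at -0.89.

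Of the mTORC1 pathway, on which DDIT4 acts, 6 of 26 genes are named, and 4 of 6 fell in deficient Th17 cells, again beside 54.9% of all tested named rows. Mlst8, a subunit of mTORC1, fell by 1.42 on the log2 scale, Tbc1d7, a subunit of the TSC complex that restrains mTORC1, by 0.69, and Gatsl3 by 0.69. The Th17 libraries alone called 3 of 6, beside 52.4% of named rows. Of the 15 named genes of the glucocorticoid and hypoxia list (of 17), 14 were tested in the fit of 16 libraries, and 13 fell with a median of -0.65, beside 54.9% and a median of -0.41 over all tested named rows. This list is given because its stimuli also act on Ddit4. The genes that fell were led by Ndrg1, a hypoxia-induced gene, at -1.94, Hif1a, the hypoxia-inducible factor gene, at -1.60 and Ankrd37 at -0.90. D3TAM955 stood apart in this list, as the lowest deficient Th17 library in 11 of 14 genes, against 32.6% of all tested named rows. For Ndrg1 it had 1304 normalized counts, and the other deficient Th17 libraries had 2760 to 3307. Without D3TAM955 13 of 14 still fell, with a median of -0.50, and Ddit4 changed by -1.58. In IL-7 cells 0 of 14 were called, with 3 at an unadjusted p under 0.05 and 0 with voom weights. Of the mitochondrial chaperones and proteases 3 of 9 are named, and 2 of 3 fell, beside the same 54.9%, Lonp1 by 0.43 and Yme1l1 by 0.23 on the log2 scale.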

How the data were processed

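RNA of 16 libraries was used, 4 in each of 4 groups taken from the sample labels. Per the submitters' processing notes, the authors trimmed reads with Trim Galore 0.4.4, aligned them with STAR 2.6 to NCBIM37, counted with featureCounts and used edgeR and DESeq2; their settings were not given in the sources used here. Per the file headers the deposited table holds normalized counts per library, a signal that the authors made by dividing counts by size factors. Per the file headers it also holds the authors' log2 fold change with its standard error and their test statistic, a score. The authors' p-value and adjusted p-value stand beside them, per the file headers.

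The deposited normalized counts had lost their decimal points. Within a library they are whole multiples of the value of 1 read (99.993% of nonzero values, within 0.0002 of a whole number), and the power of 10 was chosen by agreement of the 4 libraries of a group; 8.58% of nonzero values were raised. Rows with a posterior of at least 0.95 in every group were kept (14219 of 17850, 79.7%), which for a named row was required of the IL-7 groups only. The table's rows are not in the order of its 8551 names. Each name was matched to a row by computing the authors' log2 fold change from the row's reads, at the dispersion implied by their standard error, and asking for a difference within 1e-06, with the next row at least 20 times worse; 7723 joined (90.3%), and 9 of 1000 decoys did. For the 4 genes the error was at most 2.8e-08. In 6 of their 16 sets of 4 values 1 value had been raised.

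Tests used limma 3.58.1 in R 4.3.3 with a mean-variance trend on log2(normalized count + 1), rows with a mean of at least 5 (13872 rows), all 16 libraries in 1 fit with 12 residual degrees of freedom, and Benjamini-Hochberg adjustment over all rows at 0.05. Restoring and test were also run on simulated reads. These were drawn around the restored levels with a fixed dispersion and no effect of library or ending. That run therefore cannot give the error rates under the spread of the real libraries. Python 3.11.15, numpy 2.4.6, scipy 1.17.1 and numba 0.67.0 served the restoring. Besides the 4 genes, up to 3 called genes with the largest change are named from each list, and for each of the 4 the 3 most correlated named genes; others are marked. The genes, lists and tests were chosen with earlier results of these data known. The reference promoters are of another build than the table's and were matched by symbol.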

Additional observations from a re-analysis of the deposited data

Results flagged for a closer look

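In each of the 16 sets of 4 libraries (4 genes in 4 groups) the gap of the highest or lowest library to its nearest neighbour was divided by the range of the set and held against Dixon's 95% critical value, which chance passes in about 5% of sets. Atf4 in BASAL960 stood at 4655 normalized counts, above the next sufficient IL-7 library at 4257. Ddit4 in D3955 stood at 18209, below the next sufficient Th17 library at 24468, and Ddit4 in D3TAM959 at 8565, above the next deficient Th17 library at 7306. BASAL960 also had the largest deviation from its group over all tested rows, a root mean square of 0.39 on the log2 scale, against 0.23 to 0.37 in the other libraries.

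The deletion effect was more negative in Th17 than in IL-7 cells by the interaction term of limma for Ddit4 (-1.76), Trib3 (-1.47) and Atf4 (-0.61), with 8 libraries on each side. By the same term 35% of named rows were called as more negative. All deficient libraries were below all sufficient ones in Th17 cells for these 3 genes, while their groups overlapped in IL-7 cells. The direction in Th17 cells was fixed by the listing, and the share of all rows without overlap was not counted.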

How the results depend on the processing

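Changes with the deletion in Th17 cells kept their sign and their call in all 30 alternatives for each of the 4 genes. That sign is the one by which the genes were listed from the same libraries, so keeping it is no independent support. Over all 20 values of the 4 genes, those of the deletion in Th17 cells included, 562 of 584 recomputations agreed in sign and call with the value reported. Leaving out 1 library, or the 4 libraries of 1 ending, moved the deletion change in IL-7 cells from -0.081 to 0.061 for Atf4 and from -0.20 to 0.060 for Trib3, neither called. In the same recomputations polarization gave -0.78 to -0.37 for Trib3 in sufficient cells, and 0.20 to 0.32 for Atf4 and 0.19 to 0.59 for Atf5 in deficient cells. The stage difference ran from -0.76 to -0.45 for Atf4 and from -0.64 to -0.27 for Atf5. The counts of called rows ran from 41 to 704 for the deletion in IL-7 cells and from 3236 to 5729 for the stage difference. Polarization of deficient cells, not called in the report, passed in 4 of 29 alternatives for Atf4, among them scaling to total reads (0.29) and quantile normalization (0.32), and in 6 of 29 for Atf5, among them quantile normalization (0.40); the others each left libraries out. The cause was not tested in any of these. These 2 scalings moved the median of all rows by less than 0.1 on the log2 scale. They, voom weights, the fit of Th17 libraries alone and the list counts without D3TAM955 were chosen after seeing the data. The edgeR factors and the edgeR and DESeq2 tests that had been listed were not run.

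With the recurring ending as a replicate block, called rows were 8161 for the deletion in Th17 cells, 873 in IL-7 cells (586 without the block), 10818 and 11029 for polarization of sufficient and deficient cells and 5771 for the stage difference, and no call of the 4 genes changed. Libraries of the same ending correlated in their deviations by 0.004 to 0.40 (24 pairs, all above 0, median 0.09), and those of different endings by a median of -0.02. In 41 of 48 cases a library correlated best with its own ending in another group. What the endings stand for was not tested. The labels do not say that they mark a shared source, and the label Female occurs under only 1 of the 4 endings. Only 9 of 24 pairs were over the 0.1 that had been required of every pair, so the block was kept as an alternative. Depth limits low genes most, since 1 read is worth about 1 normalized count.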
